A study of Mus musculus with 4 samples.

Results

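A list of 37 genes of the oligodendrocyte lineage and of myelin was followed in the hippocampus of mice with and without Ipmk, the inositol polyphosphate multikinase gene, in excitatory neurons. Members were taken by gene symbol, and all 37 were found among the 30921 gene symbols and 33793 probe sets of the array, each by 1 probe set that the annotation marks as unique. They were grouped by role into 2 precursor genes, 5 lineage transcription factors, 7 genes of maturing cells, 10 genes of myelin structure, 7 genes of lipid synthesis and metabolism in myelinating cells, and 6 other genes of mature oligodendrocytes. The probe sets hold between 17 and 41 probes, and each overlaps its gene in the RefSeq table of GRCm38.p6.

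Oligodendrocytes are the glial cells that wrap axons of the brain in myelin, a stack of compacted membrane rich in lipid and in a few abundant proteins. They arise from precursor cells that keep dividing in the adult brain, and a precursor passes through a committed, maturing stage before it makes myelin. The transcription factors of the lineage, Olig1, Olig2 and Sox10 among them, are used from the precursor on, while Myrf switches on the genes of myelin when the cell matures. In the hippocampus the myelinating cells lie densely in the fibre tracts at its edges and more sparsely among the neurons.

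The arrays were 4 Affymetrix Mouse Gene 2.0 ST chips, each with RNA from 1 male mouse, taken from its right hippocampus at postnatal day 90. The 2 mice labelled as IPMK WT were controls with floxed Ipmk alleles, littermates without Cre as the methods describe them, and the 2 labelled as IPMK cKO carried the same floxed alleles together with CaMKII-Cre. This Cre acts in excitatory neurons of the postnatal forebrain, so the design does not aim the deletion at oligodendrocytes. Values are RMA values on the log2 scale, in which the arrays have been given like distributions, and array medians lay between 5.10 and 5.15. A value of 1 probe set cannot be set against that of another as an amount of RNA, so levels are compared between arrays only. In whole tissue, fewer cells of a type and less RNA per cell cannot be told apart.

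Ipmk itself read 7.68 and 7.71 in the arrays labelled as IPMK WT, against 8.44 and 8.78 in those labelled as IPMK cKO, and its other probe set 5.78 and 5.52 against 6.97 and 6.43. The targeted gene thus read higher in the arrays labelled as its knockout, and the position of these probes relative to the floxed part was not determined, so every direction below is that of the labels. Of the hippocampal markers, Prox1, a factor of dentate granule cells, lay between 7.95 and 8.41 over the arrays and Neurod6, a factor of pyramidal neurons, between 8.56 and 9.02. No background signal was at hand, so presence was not called. Of the 37 members, 0 had a mean under 4 and 4 had a mean under 6 on the log2 scale, namely Klk6, Gjb1, Cspg4 and Nkx2-2, where the median over all probe sets was 5.13.

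Promoters are shown for the member with the highest mean value among the genes of myelin structure, of maturing cells and of precursors, so that the letters of 3 stages of the lineage can be read side by side. The same rule named Enpp2 among the genes of lipid and metabolism. They are the 250 bases before the start that RefSeq lists first, which need not be the most upstream one. They are given on GRCm38.p6, 5′ to 3′ on the strand of the gene, which is plus in each. The letters searched, on both strands, were ACAAAG for the Sox factors, CTGGNAC for Myrf, and CATATG and CAGCTG for the E-boxes bound by Olig2, and every match stands in capitals. The windows lie at chr9:120149492-120149741 for Mobp, at chr3:102734520-102734769 for Tspan2 and at chr5:75152001-75152250 for Pdgfra. Tspan2 has 2 listed starts, and most of its window lies after the annotated start of its probe set at 102734529. In the order named, they belong to a myelin protein, to a tetraspanin of maturing cells and to the receptor of precursors for platelet-derived growth factor.
Mobp: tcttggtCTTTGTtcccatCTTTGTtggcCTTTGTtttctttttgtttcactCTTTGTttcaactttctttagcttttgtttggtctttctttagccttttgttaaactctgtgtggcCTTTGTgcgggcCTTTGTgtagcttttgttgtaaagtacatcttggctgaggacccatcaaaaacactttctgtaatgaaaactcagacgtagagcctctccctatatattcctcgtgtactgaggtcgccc
Tspan2: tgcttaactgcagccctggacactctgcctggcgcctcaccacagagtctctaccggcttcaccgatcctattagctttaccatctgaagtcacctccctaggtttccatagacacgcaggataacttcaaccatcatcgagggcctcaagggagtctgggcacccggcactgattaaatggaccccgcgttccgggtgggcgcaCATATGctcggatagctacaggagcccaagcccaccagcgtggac
Pdgfra: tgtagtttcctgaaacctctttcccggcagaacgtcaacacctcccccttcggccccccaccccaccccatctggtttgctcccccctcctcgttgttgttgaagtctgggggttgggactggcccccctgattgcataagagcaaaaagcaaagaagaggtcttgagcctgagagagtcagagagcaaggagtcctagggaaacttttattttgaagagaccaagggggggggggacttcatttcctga
The Mobp window held 6 matches to the Sox letters, all as their reverse complement, the Tspan2 window 1 CATATG, and the Pdgfra window none of the 4 motifs. No matches overlapped. RefSeq promoters were at hand for 25 of the 37 members. Of these, 8 held the Sox letters (32.0%, against 16.5% of 27025 promoters), 8 the Myrf letters (32.0% against 16.0%), 2 CAGCTG (8.0% against 12.8%) and 1 CATATG (4.0% against 3.47%). A match is a run of letters and not a bound site, and these shares were not tested.

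No oligodendrocyte gene passed the test between genotypes, and the differences were small beside the spread between the arrays of 1 genotype. The difference of group means ran from −0.19 for Enpp2 to 0.14 for Klk6 on the log2 scale, with a median of −0.01 over the 37 members and of −0.00 over all probe sets. In limma, which tests the difference with a variance moderated by that of all probe sets, 0 of 37 members had an adjusted p under 0.05 and 0 had an unadjusted p under 0.05, the lowest p being that of Enpp2 (adjusted p = 0.9999). Of all probe sets, 0.0% had an adjusted p under 0.05 and 2.86% an unadjusted p under 0.05, with 0.979% higher and 1.88% lower in the arrays labelled as IPMK cKO, against 0 and 0 members. Standard errors of the members lay between 0.12 and 0.29, and with 2 arrays against 2 an exact permutation test cannot give a p under 0.333. Ipmk, with differences of 0.92 and 1.05 in its 2 probe sets (standard errors 0.15 and 0.21), also had an adjusted p of 0.9999 in limma. Failing at the adjusted p therefore says little about a gene. Before adjustment, the lowest p of a member in limma was 0.334, that of Enpp2. For 30 of the 37 members the 95% confidence interval stayed inside a 1.5-fold change in either direction, which held for 75.2% of all probe sets. The 7 with a wider interval were Olig1, Enpp6, Ermn, Enpp2, Hapln2, Klk6 and Evi2a, and over all members the intervals reached from −0.74 to 0.72.

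**Figure D1:**
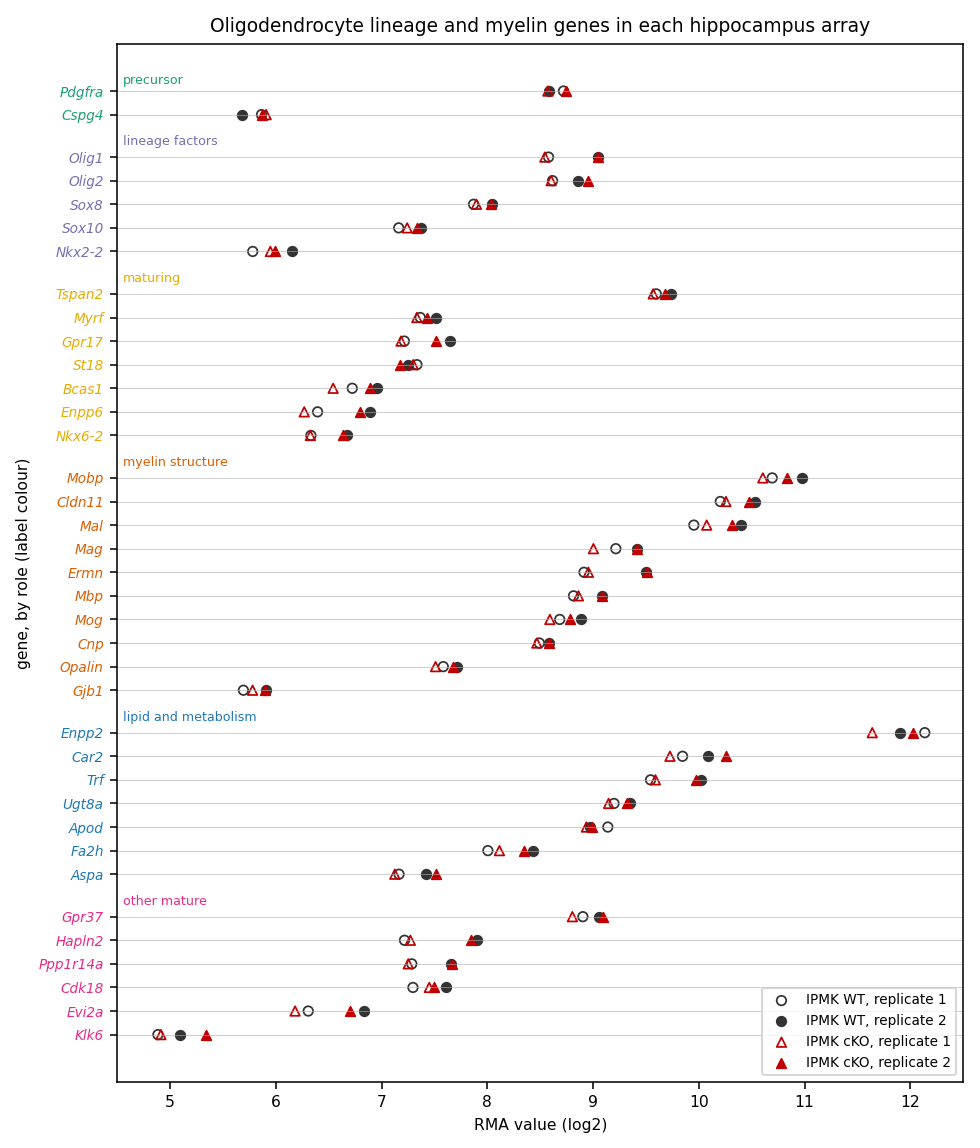
Each row is 1 of the 37 genes and each symbol 1 array, on the log2 scale of RMA values (horizontal axis). Circles are the arrays labelled as IPMK WT and triangles those labelled as IPMK cKO, open for replicate 1 and filled for replicate 2, and in most rows the 2 open symbols lie left of the 2 filled ones, whatever the genotype.

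Both of the 2 precursor genes had a genotype difference above 0, as had 4 of the 5 lineage transcription factors. Pdgfra, the growth factor receptor that marks precursors, read 8.72 and 8.58 in the arrays labelled as IPMK WT, against 8.57 and 8.75 in those labelled as IPMK cKO. The 2 genotypes overlapped, with a log2 difference of 0.01 (standard error 0.13) that became −0.01 when quantile normalization was repeated. Cspg4, the NG2 proteoglycan of precursors and of pericytes, read 5.86 and 5.68 against 5.91 and 5.87. Here both arrays labelled as IPMK cKO lay above both others, but the nearest 2 arrays were almost equal, with 5.865 against 5.864. The difference of means was 0.11 (standard error 0.13, 95% confidence interval −0.21 to 0.43). Cspg4 was 1 of 37 members without overlap between genotypes, where 27.2% of all probe sets had none, 12.4% with the arrays labelled as IPMK cKO higher (1 member) and 14.8% with them lower (0 members). The members' share is below this background, and the difference of Cspg4 is smaller than its error.

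The lineage transcription factors had nearly equal means in the 2 genotypes, with log2 differences between −0.02 and 0.04. Olig1, a basic helix-loop-helix factor, read 8.58 and 9.05 in the arrays labelled as IPMK WT, against 8.54 and 9.05 in those labelled as IPMK cKO. Its neighbour on chromosome 16, Olig2, which sets the identity of the lineage, read 8.62 and 8.86 against 8.60 and 8.95. In both genes the arrays fell into a lower and a higher pair, and each pair held 1 array of either genotype. Sox8 read 7.87 and 8.04 against 7.90 and 8.04, and Nkx2-2, a homeodomain factor of cells about to differentiate, 5.78 and 6.15 against 5.95 and 5.99. Both arrays labelled as IPMK cKO lay between the 2 others in Nkx2-2, and its difference was 0.00 (standard error 0.16). The differences of Olig1, Olig2 and Sox8 were −0.02, 0.04 and 0.01 (standard errors 0.23, 0.17 and 0.13). Sox10, the factor that acts together with Myrf at myelin genes, had a mean of 7.28 over the 4 arrays and a difference of 0.02 (standard error 0.13).

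In the arrays labelled as IPMK cKO the 7 genes of maturing cells all had the lower mean, by 0.02 to 0.12 on the log2 scale, and 0 of 7 passed the test. A lower mean was also found in 17444 of the 33793 probe sets, and in 4 of the 8 further maturing genes described below. After each array was centred on its median, 6 of 7 had a lower mean. The median of the list was −0.06, and it was −0.19 without replicate 1 and 0.03 without replicate 2 of the arrays labelled as IPMK WT. Without replicate 1 or replicate 2 of those labelled as IPMK cKO it was 0.06 or −0.17, so its sign depended on which array was left out. Leaving out 1 array also makes the replicate numbers unequal between genotypes. These 4 values therefore carry the replicate difference too, and cannot show by themselves whether the sign by genotype is stable. Within each replicate number all 7 were lower, as given below. Bcas1, which marks cells that have begun to make myelin, had the largest of these differences, reading 6.72 and 6.95 in the arrays labelled as IPMK WT, against 6.54 and 6.89 in those labelled as IPMK cKO. The difference of −0.12 (standard error 0.17) was smaller than that between the 2 arrays of either genotype. Enpp6, a choline phosphodiesterase that marks newly formed oligodendrocytes, read 6.39 and 6.89 against 6.27 and 6.79. Tspan2, the tetraspanin with the promoter above, read 9.60 and 9.74 against 9.57 and 9.68, and Myrf, the membrane-bound factor that turns on myelin genes, 7.37 and 7.51 against 7.33 and 7.43. In these 3 genes, replicate 2 was again the higher array of each genotype. St18, a zinc finger factor, was the exception of this list, with 7.33 and 7.25 against 7.30 and 7.18. The differences were −0.11 for Enpp6 (standard error 0.24), −0.04 for Tspan2 (0.13), −0.06 for Myrf (0.13) and −0.05 for St18 (0.12). Gpr17, a receptor of committed precursors with a mean of 7.39 over the 4 arrays, had a difference of −0.08 (standard error 0.20) and the homeodomain factor Nkx6-2, with a mean of 6.49, one of −0.02 (standard error 0.18).

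The genes of myelin structure had a median difference of −0.01, with 4 means higher and 6 lower in the arrays labelled as IPMK cKO. Mobp, the basic protein of oligodendrocyte myelin with the promoter shown first, read 10.69 and 10.97 in the arrays labelled as IPMK WT, against 10.61 and 10.84 in those labelled as IPMK cKO. Its difference of −0.11 (standard error 0.16, 95% confidence interval −0.50 to 0.28) was the largest of the list in size. Cldn11, the claudin that seals the layers of myelin, read 10.20 and 10.53 against 10.26 and 10.48. The 2 genotypes overlapped in these genes, as in all 10 of the list. Ermn, a cytoskeletal protein of oligodendrocytes, read 8.91 and 9.50 against 8.96 and 9.51, the widest spread of the list, and Cnp, the phosphodiesterase of non-compact myelin, 8.49 and 8.58 against 8.47 and 8.58, the narrowest. The differences of Cldn11, Ermn and Cnp were −0.00, 0.03 and −0.01 (standard errors 0.16, 0.27 and 0.12). Mag, the adhesion molecule next to the axon, and Mog, a surface protein of the outer layer, had differences of −0.11 (standard error 0.18) and −0.10 (standard error 0.14). Mbp, the protein that compacts the membrane, had a difference of 0.02 (standard error 0.16) and Mal, a proteolipid of membrane sorting, one of 0.02 (standard error 0.19). The means over the 4 arrays were 9.26 for Mag, 8.73 for Mog, 8.96 for Mbp, 10.19 for Mal, 7.62 for Opalin and 5.82 for Gjb1. For Opalin, a membrane protein of myelin, it was −0.06 (standard error 0.13), and for Gjb1, a connexin of its gap junctions, 0.04 (standard error 0.14).

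**Figure D2:**
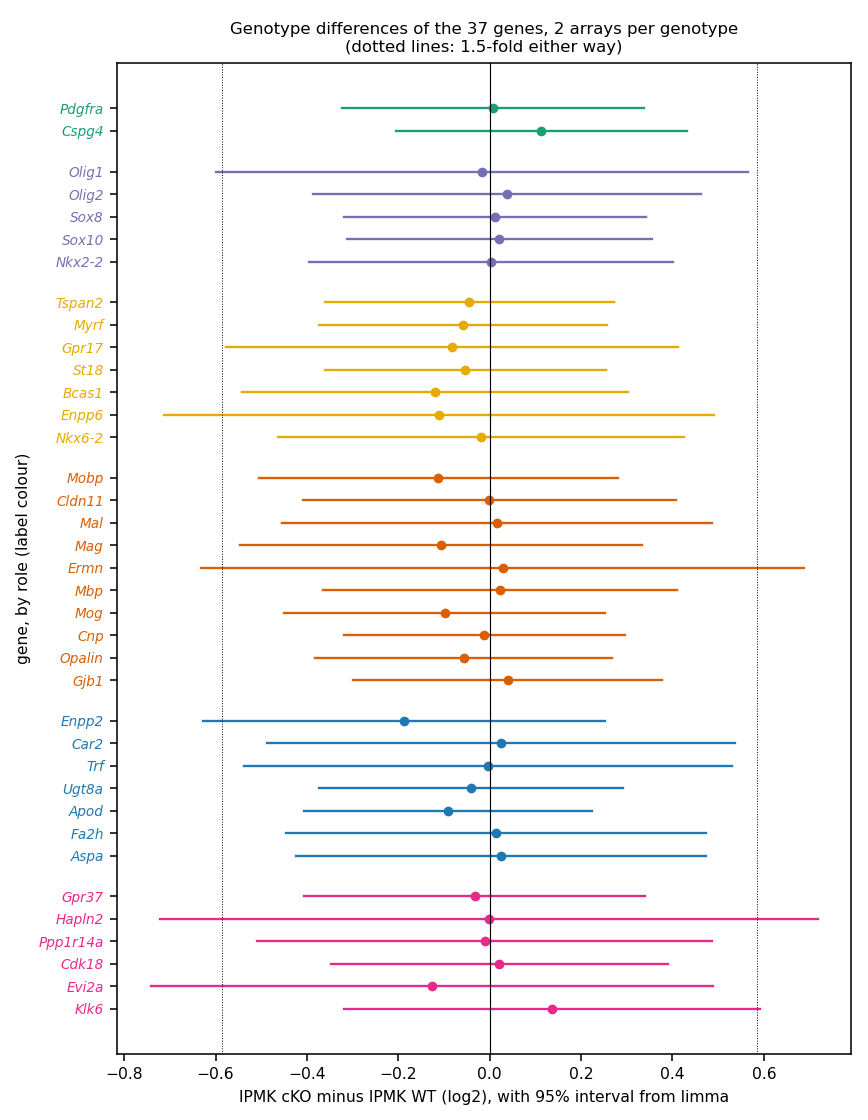
Points are the log2 differences of group means, arrays labelled as IPMK cKO minus arrays labelled as IPMK WT with 2 arrays each, and bars the 95% confidence intervals from limma. Every interval includes 0, and the dotted lines mark 1.5-fold either way, which 30 of the 37 intervals do not reach.

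Enpp2 had the largest difference by genotype among the genes of lipid synthesis and metabolism, and among all members. It encodes autotaxin, a secreted enzyme that makes lysophosphatidic acid, and it is used by the choroid plexus as well as by oligodendrocytes. It read 12.14 and 11.91 in the arrays labelled as IPMK WT, against 11.64 and 12.03 in those labelled as IPMK cKO, a difference of −0.19 (standard error 0.18, 95% confidence interval −0.63 to 0.25). Replicate 1 of the latter was the lowest array, and without it the difference was 0.01. Car2, the carbonic anhydrase of oligodendrocytes, read 9.85 and 10.08 against 9.73 and 10.25, and Trf, the iron carrier transferrin, 9.54 and 10.02 against 9.59 and 9.97. Both genes are also used by the choroid plexus, and in both the 2 arrays of replicate 2 were the higher ones. Apod, a lipid-binding lipocalin also made by fibroblasts, read 9.14 and 8.97 against 8.94 and 8.99. The differences were 0.03 for Car2 (standard error 0.21), −0.00 for Trf (0.22) and −0.09 for Apod (0.13). The enzymes Ugt8a, Fa2h and Aspa had means of 9.25, 8.22 and 7.31 over the 4 arrays. The difference of Ugt8a, which makes galactosylceramide, was −0.04 (standard error 0.13), that of Fa2h, which hydroxylates its fatty acid, 0.01 (standard error 0.19), and that of Aspa, which frees acetate from N-acetylaspartate, 0.03 (standard error 0.18).

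Among the other genes of mature oligodendrocytes, Hapln2, a link protein of the matrix at nodes of Ranvier, had the widest spread between arrays and almost no difference by genotype. It read 7.22 and 7.91 in the arrays labelled as IPMK WT, against 7.27 and 7.85 in those labelled as IPMK cKO. The difference of means was −0.00 (standard error 0.29), while replicate 2 stood above replicate 1 by 1.61-fold in the first and 1.49-fold in the second. Klk6, a secreted serine protease, read 4.88 and 5.10 against 4.91 and 5.34, and Gpr37, an orphan receptor, 8.90 and 9.06 against 8.80 and 9.09. The kinase gene Cdk18 read 7.30 and 7.61 against 7.45 and 7.50, so that its 2 arrays labelled as IPMK cKO lay between the others. The differences were 0.14 for Klk6 (standard error 0.18), −0.03 for Gpr37 (0.15) and 0.02 for Cdk18 (0.15). Evi2a, which lies within an intron of Nf1, had a difference of −0.13 (standard error 0.25), and Ppp1r14a, an inhibitor of a phosphatase, one of −0.01 (standard error 0.20), with means of 6.51 and 7.46 over the 4 arrays.

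The spread of these genes went with replicate number rather than with genotype. Replicate 2 was above replicate 1 in both genotypes in 32 of the 37 members, where this held for 28.7% of all probe sets, and it was below replicate 1 in both in 2 members, Cspg4 and St18, and in 30.2% of all probe sets. Taken by genotype, replicate 2 was the higher array in 32 members within IPMK WT (50.5% of all probe sets) and in 35 within IPMK cKO (47.9%). The median of replicate 2 minus replicate 1 was 0.24 within IPMK WT and 0.24 within IPMK cKO on the log2 scale, against 0.00 and −0.01 over all probe sets. The difference by genotype was smaller than both replicate differences in 35 of the 37 members and in 49.4% of all probe sets. The replicate differences of the 2 genotypes come from 4 separate arrays that were normalized together. Across the 37 genes they had a Pearson correlation of 0.61 and a Spearman correlation of 0.60, and across all probe sets 0.24 and 0.23, where genes measured on the same arrays are not independent. The labels number the mice 1566 (IPMK WT) and 1568 (IPMK cKO) in replicate 1, and 1558 and 1557 in replicate 2, so animal numbers lie closer within a replicate number than between them. Which of these mice shared a litter, a batch or a day is not stated. The replicate differences are given as values and were not tested.

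By role, the replicate difference was largest in the other mature genes and was not seen in the 2 precursor members. The median of replicate 2 minus replicate 1 within IPMK WT was −0.16 for the 2 precursor genes, 0.24 for the lineage factors, 0.23 for the maturing genes, 0.24 for myelin structure, 0.24 for lipid and metabolism and 0.34 for the other mature genes. Within IPMK cKO the medians were 0.07, 0.14, 0.31, 0.22, 0.38 and 0.42 in the same order. All 10 genes of myelin structure, all 5 lineage factors and all 6 other mature genes had the higher value in replicate 2 of both genotypes, and so had 6 of the 7 maturing genes, without St18, and 5 of the 7 genes of lipid and metabolism, without Enpp2 and Apod. Of the precursor genes it was 0 of 2. The 9 further precursor genes described below had replicate medians of 0.197 within IPMK WT and 0.265 within IPMK cKO, unlike the 2 members. Which of these genes stand for precursor cells in whole tissue was not tested. Hapln2 and Ermn had the largest replicate differences of the 37 in both genotypes, 0.69 and 0.58 for Hapln2 and 0.58 and 0.56 for Ermn. No test of the difference between roles was made.

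**Figure D3:**
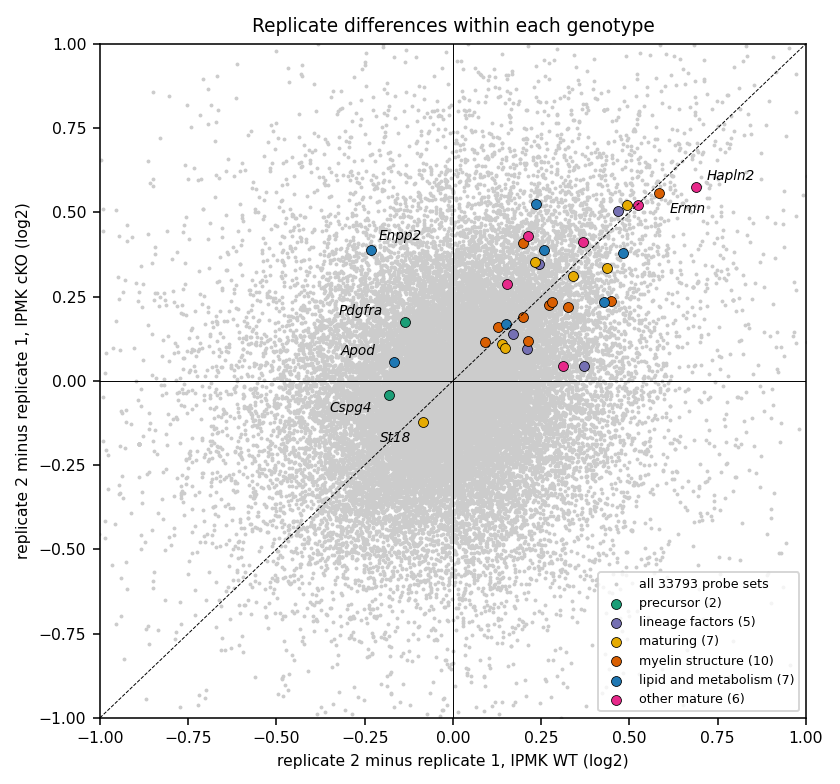
Each coloured point is 1 member, coloured by role, and each grey point 1 of all probe sets, of which 324 lie outside the axes. The horizontal axis is replicate 2 minus replicate 1 within IPMK WT and the vertical axis the same within IPMK cKO, both in log2, and 32 of 37 members lie above 0 on both axes.

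Within each replicate number, the genotype difference of the maturing genes had 1 sign. All 7 were lower in the array labelled as IPMK cKO in replicate 1 and again in replicate 2, with log2 differences of −0.03 and −0.13 for Gpr17, −0.13 and −0.10 for Enpp6, and −0.18 and −0.06 for Bcas1. Of the 37 members, 13 were lower in both replicate numbers and 3 were higher in both, where 25.2% and 23.5% of all probe sets were, and 21 had differences of opposite sign. Beside the maturing genes, the 13 held 4 genes of myelin structure, namely Mobp (−0.09 and −0.14), Mog, Mag and Opalin, together with Ugt8a and Evi2a. The 3 were Cspg4, Ermn and Klk6. Opposite signs were seen in Enpp2, with −0.50 in replicate 1 and 0.12 in replicate 2, in Apod, with −0.20 and 0.02, and in all 5 lineage factors. The further maturing genes described below did not share the sign of the maturing members. Among them Tcf7l2 (0.06 and 0.27) and Zfp488 (0.10 and 0.08) were higher in both replicate numbers. Itpr2 (−0.06 and −0.04) was lower in both, and the others had opposite signs. These are differences between single arrays, many of them smaller than the standard errors above, and none of these genes passed the test across arrays. The labels do not say that the replicate numbers pair the mice.

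The further genes of the lineage, 42 in all, did not pass the test by genotype either. In limma 0 of 9 precursor, 0 of 8 maturing and 0 of 25 myelinating genes had an adjusted p under 0.05, and 0 of the 42 an unadjusted p under 0.05. The median difference by genotype was −0.03, −0.00 and 0.01 in this order. The lowest p of each list belonged to Sox5, a factor of precursors, with a difference of −0.12 (standard error 0.12), to Zfp488, a zinc finger factor of maturing cells, with 0.09 (standard error 0.12), and to Lpar1, a receptor for lysophosphatidic acid, with −0.19 (standard error 0.13). Replicate 2 was above replicate 1 in both genotypes in 29 of the 42, in 7 of the 9 precursor, 4 of the 8 maturing and 18 of the 25 myelinating genes. The further maturing genes had the smallest replicate medians of the 3 lists, 0.04 within IPMK WT and 0.13 within IPMK cKO, and 2 of the 8 were lower in replicate 2 of both genotypes. Ninj2, an adhesion molecule named here after its values were seen, had the largest difference of the 42, 0.39, with 5.81 and 6.22 against 5.99 and 6.83, so that the genotypes overlapped.

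Markers of other glia followed the same arrays as the oligodendrocyte genes. The mean over the 37 members was 8.07 and 8.32 in the 2 arrays labelled as IPMK WT, against 8.04 and 8.30 in those labelled as IPMK cKO. The mean over 10 astrocyte markers was 8.98 and 9.43 against 9.04 and 9.48, and that over 10 microglia markers 7.34 and 7.72 against 7.28 and 7.69. Replicate 2 was above replicate 1 in both genotypes in 10 of the 10 astrocyte and 9 of the 10 microglia markers. Excitatory neuron markers lay the other way, with means of 9.99 and 9.90 against 10.08 and 9.77, and 6 of 8 were lower in replicate 2 of both genotypes. Inhibitory neuron markers had means between 7.63 and 7.71, and thalamus markers between 6.32 and 6.46. The thalamus mean joins genes that went different ways. Of its 6 markers, 2 were higher and 2 lower in replicate 2 of both genotypes. The 2 higher ones were Slc17a6 (6.97 and 7.39 against 7.29 and 7.64) and Prkcd (6.84 and 7.30 against 7.07 and 7.39). Schwann cell markers, which could share myelin genes with the members, had means of 5.31 and 5.11 against 5.34 and 5.10. Endothelial markers had means between 6.83 and 6.95. The lowest p of each list belonged to Aldoc among astrocyte markers (log2 difference 0.13), Aif1 among microglia (−0.15), Neurod6 among excitatory neurons (−0.12), Gad1 among inhibitory neurons (0.20), Slc17a6 in the thalamus list (0.28), Egr2 among Schwann cells (0.19) and Cldn5 among endothelial cells (−0.21). In these lists 0 markers had an unadjusted p under 0.05 by genotype in limma, and their part in the replicate differences of the oligodendrocyte genes was not tested.

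The 3 members whose replicate differences had opposite signs in the 2 genotypes, Pdgfra, Enpp2 and Apod, were set beside the cells that also use them. Choroid plexus markers, 8 in all, had means of 8.51 and 8.17 in the arrays labelled as IPMK WT, against 7.65 and 8.40 in those labelled as IPMK cKO. All 8 were lower in replicate 2 of the first and higher in replicate 2 of the second, and all 8 means were lower in the latter 2 arrays, with a median difference of −0.35 and 0 of 8 at an unadjusted p under 0.05. Ttr, the transthyretin gene that defines this epithelium, read 12.83 and 12.63 against 12.36 and 12.75, which is the order of the 4 arrays in Enpp2. Kl, the Klotho gene, read 9.18 and 8.81 against 8.37 and 8.97, and Folr1, a folate receptor gene with the lowest p of the list, had a difference of −0.42 (standard error 0.24). Pericyte and fibroblast markers had means of 7.40 and 7.01 against 7.20 and 7.12, and 0 of 8 were higher in replicate 2 of both genotypes. Among them the fibroblast gene Dcn read 9.27 and 8.63 against 8.97 and 8.75, and Abcc9, a channel subunit of pericytes with the lowest p, had a difference of −0.18 (standard error 0.12). The part of these cells in the values of Enpp2, Apod, Pdgfra and Cspg4 was not tested.

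**Figure D4:**
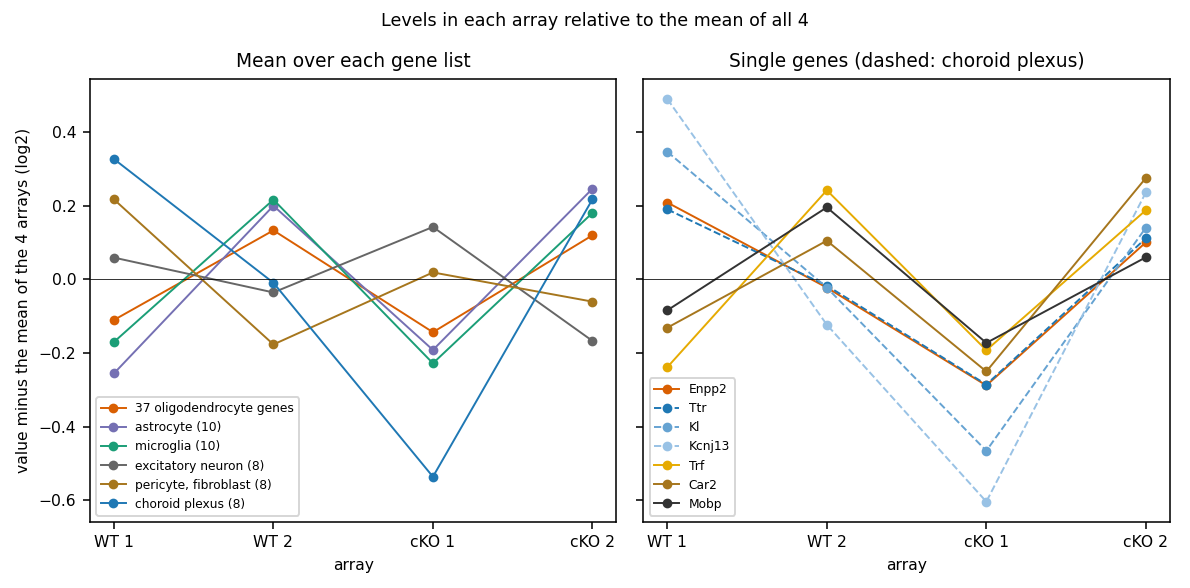
Values are shown for each array minus the mean of the 4 arrays, in log2, as means over gene lists (left) and for single genes (right), and lines only join the points of a list or gene. The 37 oligodendrocyte genes follow the astrocyte and microglia markers, with both replicate 2 arrays above 0, while Enpp2 (11.64 in replicate 1 of IPMK cKO, its lowest array) has the order of arrays of the choroid plexus gene Ttr.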

How the data were processed

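Total RNA of the right hippocampus was hybridised to 4 arrays, 2 per genotype by the labels. The authors extracted the scans with the GeneChip Command Console and summarized them by RMA in Affymetrix Expression Console, and the deposited values are on the log2 scale for 33793 probe sets. RMA includes quantile normalization, which gives the arrays like distributions, so an overall shift between them would be largely removed. The array medians of the deposited values still lay between 5.10 and 5.15. The 2 deposited tables hold the same values. In 1 of them, 4 further per-array columns were not used, nor were 9 columns with the authors' fold change, LPE statistic, adjusted p, means and SDs. The genome build of the array annotation is not given in the sources used here.

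Genes were matched by symbol, and a gene with several probe sets would be represented by the brightest. Genotypes were compared with limma 3.58.1 in R 4.3.3 (lmFit and eBayes, prior degrees of freedom 3.69, no block), p-values being adjusted by Benjamini-Hochberg across the 33793 probe sets. Alternatives changed the scaling (centring on array medians, a repeated quantile step), the low-value filter (mean log2 of 4 or 6), the variance prior (trend or robust), the probe sets used, the source table, the arrays (each left out) and the model (replicate number as a block, or the LPE test of the methods, rewritten with 100 bins and a span of 0.2). The fits were tested on simulated data. The number of arrays limits the precision.

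The members and lists were chosen with earlier results of these data known. Every member is named, and each array is given for the members with the highest mean, the lowest p or the largest replicate difference of their role, and for a few others, chosen after their values were seen, that a comparison turns on. Plots used Python 3.11.15 and matplotlib 3.10.9. Values of a few single genes are not reported here.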

Additional observations from a re-analysis of the deposited data

Results flagged for a closer look

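In 3 members, replicate 2 minus replicate 1 had opposite signs in the 2 genotypes, where 40.9% of all probe sets did. The log2 differences within IPMK WT and within IPMK cKO were −0.135 and 0.175 for Pdgfra, −0.231 and 0.389 for Enpp2, and −0.167 and 0.0553 for Apod. Each rests on 1 array per replicate number, and the difference between the genotypes was not tested.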

How the results depend on the processing

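The count of members at an adjusted p under 0.05 was 0, as was that at an unadjusted p under 0.05, under each of the 15 alternatives, and the lowest adjusted p of a member was 0.974. Over all probe sets, limma called 0 in each setting for which this count was made, which leaves out the mean of probe sets. The LPE test, rewritten, called 2, neither of them a member. With the replicate block, 0 members were called and 0 had an unadjusted p under 0.05. Of all probe sets, 1502 had an unadjusted p under 0.05, against 966 without the block. The standard errors of Hapln2, Ermn and Olig1 were 0.11, 0.11 and 0.11 with the block, against 0.29, 0.27 and 0.23 without it. That of Enpp2 was 0.18 either way. The labels do not say that the numbers pair the mice. Of 551 member values under the alternatives, 75 had the other sign, 63 of them with 1 array left out, and with all arrays kept none was over 0.2 in size. The median over members was 0.01 with arrays centred on their medians and −0.02 with quantile normalization repeated, and −0.135 to 0.136 with 1 array left out. The sign of so small a median is therefore not settled. Replicate 2 was above replicate 1 in both genotypes in 32 and 31 members under these scalings (34.7% and 27.7% of all probe sets). Without replicate 1 or replicate 2 of the arrays labelled as IPMK cKO, the median was 0.0978 or −0.135. Where 1 array was left out, the lone array of a genotype was assumed to vary like the others. The replicate numbers were then unequal between genotypes, so these values carry the replicate difference too. No background signal was at hand, so whether Klk6, with a mean of 5.06, lies above background was not determined. The mean of probe sets equals the brightest here, since each member has 1.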
